A study of Mus musculus with 10 samples.

Results

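The tissue kallikreins are secreted serine proteases encoded by a single block of genes on mouse chromosome 7. Their RNA was measured in AtT20 cells, a mouse line derived from anterior pituitary corticotroph cells. The genes described are *Klk1*, *Klk1b4*, *Klk1b5*, *Klk1b22*, *Klk1b24*, *Klk1b26*, *Klk1b27*, *Klk8* and *Klk10*, 9 of the 53801 genes in the count table. They were taken as kallikreins by name, and the set was chosen on the difference in read count between the lines, in which the abundant *Klk1* was much lower after *Creb3l1* knockdown. For these 9 genes that difference is therefore given as a description without a test.

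All 10 libraries came from AtT20/D16v-F2 cells transduced with lentivirus. Of these, 5 carried a non-targeting control shRNA and were made from 1 stable line, and 5 from another stable line carried a *Creb3l1* shRNA (*Creb3l1*-shRNA1), a short hairpin RNA against the transcription factor Creb3l1. Each condition is 1 stable line, and whether the lines were cloned or pooled was not given in the sources used here. The libraries of a line are biological replicates by the study's methods, which do not describe how they were separated. Errors and p-values measure the spread between libraries of 1 line, and a difference between lines other than the hairpin cannot be told apart from its effect.

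Mouse carries *Klk1* and a large set of *Klk1b* copies beside it, which arose by duplication and are best known from the salivary glands. Klk1 cuts kininogen to release kinins, peptides that act on the bradykinin receptors and are broken down by peptidases such as ACE. Several Klk1b proteins were named for the factors they bind or cut, while the other kallikreins, such as Klk8 in the brain and Klk10 in epithelia, are older and less alike. Kallikreins are made as inactive zymogens, are activated by trypsin-like proteases, and are held in check by serpins and other inhibitors.

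The 26 kallikrein genes placed on the assembly lay on the plus strand of chromosome 7 of GRCm38 from 43690418 to 44229618, a block of 539 kb that also held 27 pseudogenes. *Klk1* itself (ENSMUSG00000063903) lies at its end, from 44225360 to 44229618. Before it come *Klk1b5* (44215945 to 44220703), *Klk1b4* (44207435 to 44211754), *Klk1b3* and *Klk1b24* (44188236 to 44192455). *Klk1b22* (44112673 to 44116922), *Klk1b27* (44052290 to 44056712) and *Klk1b26* (44012168 to 44016968) lie further upstream, and *Klk8* (43797577 to 43803826) and *Klk10* (43781035 to 43785410) lie in the part that holds no *Klk1b* gene.

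The likeness of the *Klk1b* copies to *Klk1* can be seen in the DNA around the annotated starts. The following 30 bases are shown because every *Klk1* and *Klk1b* member carried the same pair of words there, AATGAG and TTTAAA, in capitals. For *Klk8* and *Klk10* the capitals mark TTAAAA, picked after the windows were read. The sequence of *Klk1* is from its GENCODE transcript and the others are from RefSeq windows that run from 250 bases before to 50 after each start, all on GRCm38 and all on the plus strand.
*Klk1* (chr7:44225391-44225420): tgtgggggagAATGAGggttTTTAAAggct
*Klk1b5* (chr7:44216412-44216441): tgtgggagagAATGAGggttTTTAAAgtct
*Klk1b22* (chr7:44112613-44112642): tgtgggggagAATGAGggttTTTAAAgtct
*Klk1b4* (chr7:44207366-44207395): ctgtggggagAATGAGggtTTTAAAgtctc
*Klk1b24* (chr7:44188186-44188215): ctgtggggagAATGAGggtTTTAAAgtctc
*Klk1b27* (chr7:44052253-44052282): ctatggggagAATGAGcgttTTTAAAgtct
*Klk1b26* (chr7:44012632-44012661): ctatggagagAATGAGggtaTTTAAAatct
*Klk8* (chr7:43797541-43797570): ggcttcctcgTTAAAAggctgcaaaatctt
*Klk10* (chr7:43781027-43781056): atcttgagggTTAAAAgggaaggtctgccc

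In the 6 *Klk1b* members TTTAAA began between 48 and 17 bases before the RefSeq start. The gene spans given above for *Klk1b5* and *Klk1b26* begin further upstream, at 44215945 and 44012168, so the word lies inside those spans. In *Klk1* it began 51 bases after the start of the GENCODE transcript. Over the same windows of all genes, 13.2% of 32851 held TTTAAA, 15.7% held AATGAG and 19.2% held TTAAAA on either strand. The first and last of these words overlap, and AATGAG was also chosen after the windows were read.

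The study asked which genes depend on Creb3l1, and examined the G-box word GACGTG as a site for it. That word was present on either strand in none of the 9 windows of these genes, against 6.38% of all windows. The related word CACGTG was also in none of the 9, against 7.15% of all windows. The 28 kallikrein windows included a single one with GACGTG, that of *Klk11*. The letters were sought in these windows and not elsewhere.

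The libraries held from 17420698 to 22205107 reads assigned to genes. The shRNA target was lower in every knockdown library, with *Creb3l1* at 3531 to 3864 normalised counts in the non-targeting line and at 1014 to 1159 in the *Creb3l1* shRNA line (log2 fold change -1.76, SE 0.036). A normalised count is a count scaled by the TMM-adjusted library size to the mean library. One library, non-targeting shRNA replicate 3, gave 4.13% of its counts to the non-coding gene *Gm42418*, against 0.106% to 0.191% in the other 9. The 6 corticotroph markers *Pomc*, *Tbx19*, *Neurod1*, *Pitx1*, *Crhr1* and *Pcsk1* were detected in every library, and their summed normalised counts were 150400 to 161500 in the non-targeting line and 108500 to 115400 in the other, with *Pomc* supplying most of them. By edgeR's test *Pomc*, *Tbx19* and *Pcsk1* fell (log2 fold change -0.51, -0.27 and -0.46, adjusted p = 1.15e-16, 1.2e-13 and 1.21e-19), *Neurod1* and *Pitx1* rose (0.62 and 0.36, adjusted p = 3.25e-19 and 0.00727), and *Crhr1* did not pass the threshold (-0.11, adjusted p = 0.718). By the study's quantitative PCR *Pcsk1* also decreased with *Creb3l1* knockdown, whereas *Pomc* did not change. Of 9 markers of other pituitary cells, 5 had no count and *Gh*, *Lhb* and *Ghrhr* were near 0. *Pax7* had 9.05 to 19.7 normalised counts in the non-targeting line and 2.84 to 7.45 in the other, and was not tested. Of 5 salivary gland markers, *Smr3a* and *Bpifa2* had no count, *Amy1* and *Aqp5* were near 0, and the listed sum of 192 to 234 against 158 to 185 came from *Bhlha15*. *Bhlha15* fell without overlap of the lines (log2 fold change -0.38, adjusted p = 1.8e-04, edgeR), and the other salivary gland markers were not tested. Fibroblast markers summed to 814 to 1153 and 943 to 1681, nearly all from *Col1a1* and *Col1a2* with *Dcn* and *Lum* at or near 0, and leukocyte markers summed to 35.2 to 53.8 and 29.4 to 41.8 with *Ptprc* and *Cd3e* at 0. The part of these markers in the kallikrein results was not tested.

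Among 14336 genes with enough counts to be tested, 5837 (40.7%) passed an adjusted p of 0.01 by edgeR's quasi-likelihood test, 2958 (20.6%) higher and 2879 (20.1%) lower in the *Creb3l1* shRNA line. All 9 kallikreins were in the table and 6 of them passed the filter on low counts. Of the 6, *Klk1*, *Klk1b4* and *Klk1b27* were past the threshold on the lower side, *Klk10* was past it on the higher side, and *Klk1b5* and *Klk1b26* were not past it. Because this contrast chose the genes, nothing is read from that count.

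*Klk1*, the kinin-releasing tissue kallikrein, was by far the most abundant of the kallikreins in these cells. Its normalised count was 13558, 12891, 13440, 13778 and 13335 in non-targeting replicates 1 to 5. In the *Creb3l1* shRNA libraries it was 5190, 4908, 5181, 5606 and 5176. The lowest non-targeting library was thus well above the highest knockdown library, and the libraries of a line lay close together. The means were 13400 ± 329 and 5213 ± 250 (SD, n = 5 each), so that the knockdown line held 38.9% of the non-targeting level (log2 fold change -1.36, SE 0.027). In bulk RNA, fewer cells that express *Klk1* and less *Klk1* RNA per cell cannot be told apart. Without the library rich in *Gm42418* the log2 fold change was also -1.36. With each library corrected for GC content and transcript length it was -1.24.

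By mean normalised count, *Klk1* stood within the highest 0.753% of the 14336 tested genes in the non-targeting line and within the highest 4.55% in the *Creb3l1* shRNA line. Per length of exon it stood within the highest 0.210% and 0.747% of 14315 genes. Of all tested genes 126 had a lower log2 fold change. Among the 5257 genes with a mean above 1000 normalised counts, 6 did. The set was chosen for the level and the fall of *Klk1*, so nothing is read from these ranks.

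**Figure D1:**
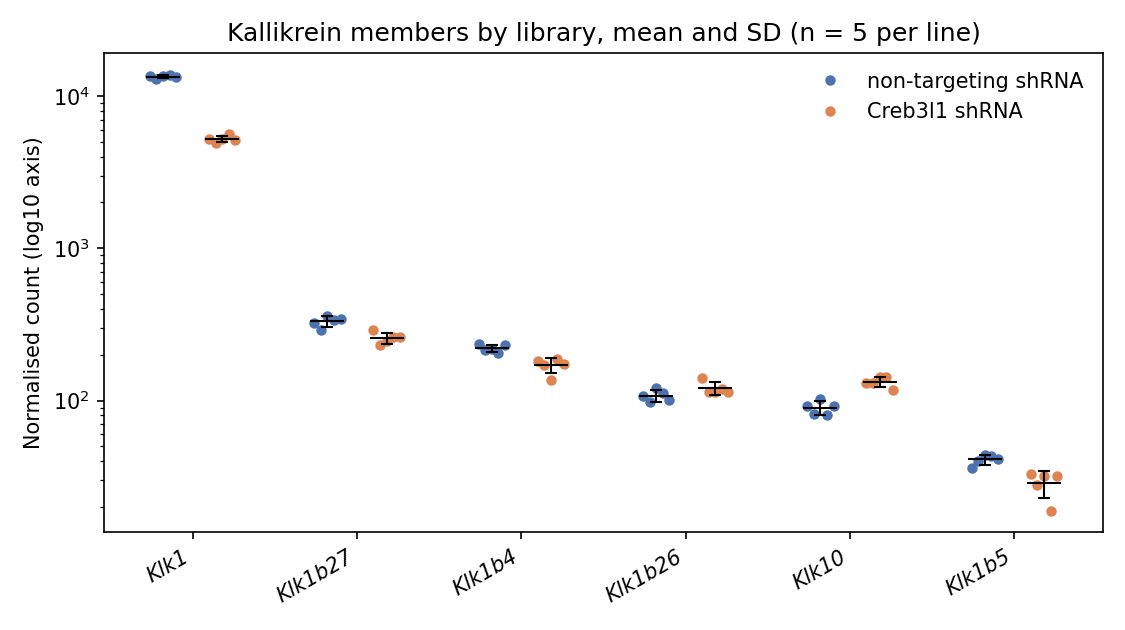
Normalised counts (log10 axis) of the 6 kallikreins that passed the low-count filter, with a point for each library and the mean and SD of the 5 libraries per line. *Klk1* went from a mean of 13400 to 5213, *Klk10* was higher in every knockdown library, and the 2 lines overlapped for *Klk1b26*.

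The *Klk1b* members were present at far lower levels. *Klk1b27* was the most abundant of them per length, with 322, 292, 359, 337 and 344 normalised counts in the non-targeting libraries and 289, 231, 246, 261 and 262 in the *Creb3l1* shRNA libraries. The lines did not overlap, although the lowest non-targeting and highest knockdown library were close (log2 fold change -0.36, SE 0.073). Such a lack of overlap was seen for 36.0% of all tested genes.

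*Klk1b4* is known from the salivary gland. Its normalised counts were 235, 216, 218, 207 and 230 in the non-targeting libraries and 182, 170, 137, 188 and 174 in the others. All 5 knockdown libraries were lower than every control, and replicate 3 was the lowest (log2 fold change -0.37, SE 0.085). After the correction for GC content and length the value was -0.25 and no longer passed the threshold.

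*Klk1b5* is the copy nearest to *Klk1* both on the chromosome and in sequence. It had 36.2, 40.3, 44.0, 43.2 and 41.5 normalised counts in the non-targeting libraries and 33.1, 27.8, 31.9, 18.95 and 31.8 in the *Creb3l1* shRNA libraries. The lines did not overlap, but few reads stood behind each value and the threshold was not passed (log2 fold change -0.51, SE 0.19).

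*Klk1b26*, a prorenin-converting enzyme of the submandibular gland, differed in sign from the other *Klk1b* members tested. It had 106.6, 97.5, 121, 112 and 100.9 normalised counts in the non-targeting libraries and 141, 115, 114, 119 and 114 in the *Creb3l1* shRNA libraries. The ranges overlapped, and replicate 1 of the knockdown line was higher than the rest (log2 fold change 0.17, SE 0.10). Without that library the value was 0.11.

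The last *Klk1b* members were close to the limit of detection. *Klk1b24* had between 1 and 13 reads in each library, 63 in all. *Klk1b22* had 5 reads in all, with 0 in 7 of the 10 libraries. Neither was tested, and no fold change is given for *Klk1b22*.

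The 2 kallikreins outside the *Klk1b* group also differed from each other. *Klk10*, a kallikrein best known from epithelia, had 91.5, 81.6, 102.7, 80.8 and 92.4 normalised counts in the non-targeting libraries and 130, 131, 144, 142 and 118 in the *Creb3l1* shRNA libraries. Every knockdown library was above every control (log2 fold change 0.57, SE 0.10). *Klk8* (neuropsin), a protease of synaptic plasticity in the hippocampus, had 5 reads over all libraries and was not tested. An annotated gene on the opposite strand, *2310002F09Rik*, shares 382 exonic bases with *Klk8* but none with *Klk10*. The libraries were made with a stranded kit, but whether the counting used strand was not given in the sources used here. Within these 382 of the 1540 exonic bases of *Klk8*, the reads of the pair can therefore not be told apart.

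The order of the levels was compared per length, as CPM (counts scaled to the TMM-adjusted library size) per kb of exon. Among these 9 genes, *Klk1* came first in the non-targeting line at 614 ± 15.1, followed by *Klk1b27* at 18.4 ± 1.41 and *Klk1b4* at 13.0 ± 0.677 (SD, n = 5 each). *Klk1b26* at 3.83 ± 0.331 and *Klk10* at 3.23 ± 0.324 overlapped, and *Klk1b5* followed at 1.45 ± 0.109. *Klk1b24* had 0.467 ± 0.144. Of the other kallikreins, *Klk11* (42.0 ± 1.28) lay between *Klk1* and *Klk1b27*, and *Klk1b9* (13.5 ± 1.08) overlapped *Klk1b4*. In the *Creb3l1* shRNA line *Klk1* was still first at 239 ± 11.5, *Klk1b27* had 14.3 ± 1.20 and *Klk1b4* 10.0 ± 1.16. *Klk10* at 4.78 ± 0.372 and *Klk1b26* at 4.29 ± 0.425 again overlapped, in the opposite order.

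Because these genes are so alike, some reads may fit more than one of them. The coding sequence of *Klk1b5* was 95.2% identical to that of *Klk1*, that of *Klk1b4* 90.2%, *Klk1b24* 86.2%, *Klk1b27* 85.5%, *Klk1b22* 85.3% and *Klk1b26* 83.4%. *Klk8* (59.0%) and *Klk10* (59.1%) were far less alike. Of all stretches of 75 bases in the longest transcript, the read length used, 7.44% of those in *Klk1b5* occurred without a mismatch in *Klk1*, 1.31% in *Klk1b4*, 0.995% in *Klk1b24* and 0.982% in *Klk1b27*. None did in *Klk1b26*, *Klk1b22*, *Klk8* or *Klk10*. With any other kallikrein, *Klk1* itself shared 14.4% of its stretches. The same share was 14.4% for *Klk1b24*, 10.8% for *Klk1b5*, 7.84% for *Klk1b4* and 5.40% for *Klk1b27*. It was 5.18% for *Klk1b26*, 0.384% for *Klk1b22* and 0 for *Klk8* and *Klk10*. How reads with several matches were counted was not given in the sources used here, so the split between copies is uncertain.

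Reads exchanged between copies stay in their sum, which was therefore fitted as 1 feature. Any reads left uncounted because they had several matches would be missing from the sum as well. *Klk1* and all 13 *Klk1b* genes together had 13850 to 14851 normalised counts in the non-targeting line and 5624 to 6384 in the *Creb3l1* shRNA line, with means of 14445 ± 374 and 5990 ± 272 (SD, n = 5 each). The log2 fold change of the sum was -1.27 (SE 0.027), close to that of *Klk1*, which supplied most of it. The 13 *Klk1b* genes without *Klk1* had 959 to 1079 and 716 to 855 normalised counts (log2 fold change -0.43, SE 0.044). The lines did not overlap for either sum.

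The copies divided the reads differently in the 2 lines. *Klk1* took 92.6% to 93.1% of the summed reads in the non-targeting libraries and 85.9% to 87.8% in the *Creb3l1* shRNA libraries. For every 100 reads of *Klk1*, *Klk1b27* had 2.27 to 2.67 in the first and 4.65 to 5.58 in the second line. *Klk1b4* had 1.499 to 1.74 and 2.65 to 3.51, and *Klk1b26* had 0.756 to 0.901 and 2.13 to 2.73. None of these ranges overlapped. *Klk1b5*, the copy most alike in sequence, had 0.267 to 0.328 and 0.338 to 0.637 reads per 100 of *Klk1*, also without overlap. *Klk1b24* had 0.0411 to 0.0919 and 0.0169 to 0.205, which overlapped. As a share of the summed reads, *Klk1b5* took 0.247% to 0.304% and 0.297% to 0.547%, and these ranges did overlap. Since *Klk1*, chosen for its difference, is the denominator, a copy that was less reduced had to have a higher ratio, and nothing is read from these ratios about shared reads.

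**Figure D2:**
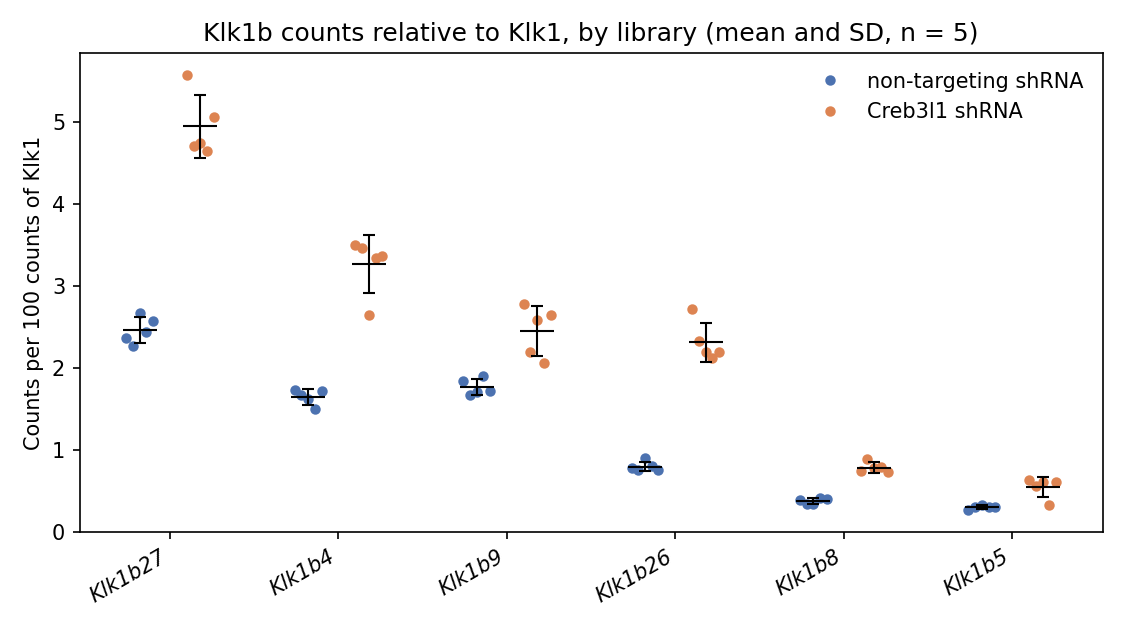
Reads of 6 *Klk1b* genes per 100 reads of *Klk1* (linear axis from 0), with a point for each library and the mean and SD of the 5 libraries per line. *Klk1b27* went from a mean of 2.47 to 4.95 and *Klk1b26* from 0.802 to 2.32, and each gene shown had a higher mean in the *Creb3l1* shRNA line.

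Of 18 further kallikrein genes, 17 were matched in the table, 5 of these had no read, and 5 passed the filter. *Klk11*, a trypsin-like kallikrein, was the second most abundant kallikrein per length, with 1199 to 1298 normalised counts in the non-targeting line and 1529 to 1688 in the other. It rose by 0.37 on the log2 scale (SE 0.035, adjusted p = 7.7e-12, edgeR), with all 5 knockdown libraries above all controls. *Klk1b9*, an epidermal growth factor-binding kallikrein, had 215 to 263 and 108.1 to 144 normalised counts. It fell by 0.89 on the log2 scale (SE 0.089, adjusted p = 3.58e-11, edgeR), with no overlap. Its coding sequence was 86.0% identical to *Klk1*, and none of its stretches of 75 bases occurred in *Klk1*. Of these stretches, 3.77% occurred in some other kallikrein.

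The other 3 tested did not pass the threshold by edgeR's test. *Klk1b8* had a log2 fold change of -0.33 (adjusted p = 0.0727), *Klk1b16*, known as gamma-renin, -0.22 (adjusted p = 0.535) and *Klk9* 0.35 (adjusted p = 0.468). *Klk1b3* had 5 to 19 reads in the non-targeting and 2 to 8 in the *Creb3l1* shRNA libraries and was not tested on all 10. It passed the filter and the threshold without non-targeting replicate 3 or without *Creb3l1* shRNA replicate 2, 3 or 4 (log2 fold change -1.50 to -1.29, adjusted p = 0.00223 to 0.009, edgeR). *Klk1b11*, with 4 to 13 and 0 to 7 reads, passed only with no filter on low counts (log2 fold change -1.83, adjusted p = 0.00237, edgeR). *Klk4*, *Klk5*, *Klk6*, *Klk7* and *Klk13* had no read in any library, which does not exclude a level too low to be seen at this depth.

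Along the chromosome, the 3 tested genes upstream of the *Klk1b* copies, *Klk11*, *Klk10* and *Klk9*, all had log2 fold changes above 0, that of *Klk9* between 0.076 (without non-targeting replicate 4) and 0.57 (without non-targeting replicate 3). Of the 8 tested *Klk1* and *Klk1b* genes, 7 had values below 0 and *Klk1b26* was above it. The median log2 fold change of all tested genes was -0.00245. *Klk9*, *Klk1b5*, *Klk1b8*, *Klk1b16* and *Klk1b26* did not pass the threshold. This contrast chose the members, so nothing is read from these signs. *Klk1b16* moved between -0.37 (without non-targeting replicate 3) and -0.064 (without *Creb3l1* shRNA replicate 2). The nearest expressed genes outside the block did not pass the threshold. *Ctu1*, a tRNA-modifying enzyme gene before the block, had 528 ± 31.0 and 527 ± 30.1 normalised counts (SD, n = 5 each; log2 fold change -0.0035, SE 0.054, adjusted p = 0.964, edgeR). *1700028J19Rik*, on the opposite strand with its end just after *Klk1*, had 97.4 ± 5.31 and 91.0 ± 8.52 (log2 fold change -0.099, SE 0.11, adjusted p = 0.479, edgeR). The 4 others that adjoin it, *Siglece*, *Gm36546*, *Gm36864* and *Gm25386*, had too few reads to be tested. *Gm10109*, a transcribed pseudogene on the opposite strand that overlaps *Klk1* without sharing exonic bases, fell from 32.2 ± 9.16 to 16.1 ± 4.73 normalised counts (adjusted p = 5.92e-04, edgeR).

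**Figure D3:**
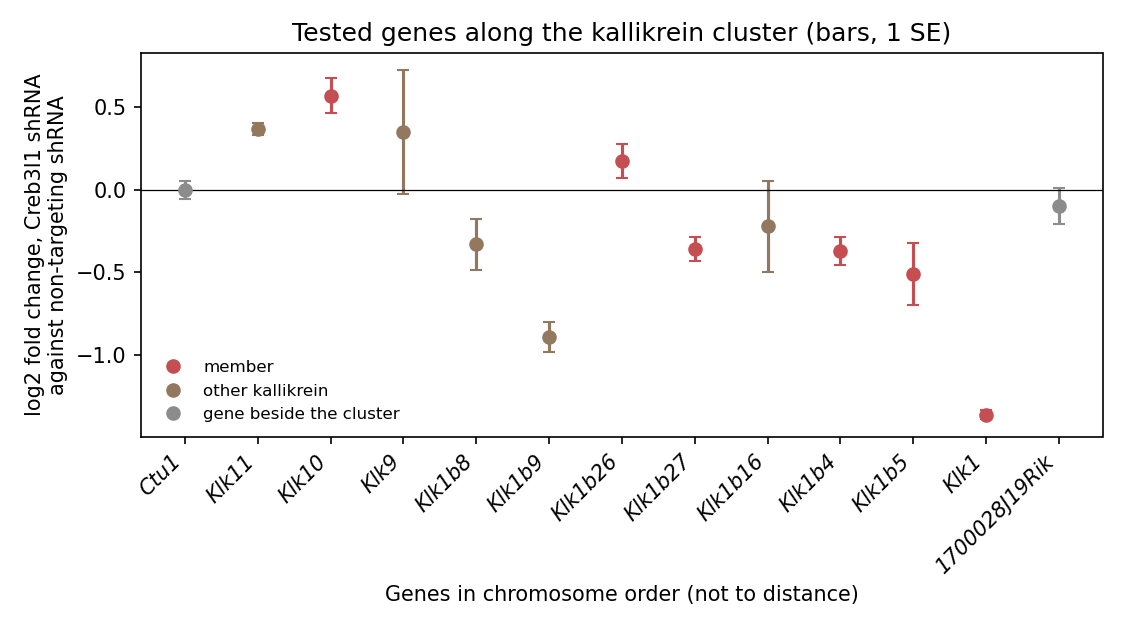
Log2 fold change (*Creb3l1* shRNA against non-targeting shRNA, bars 1 SE) of the 11 tested kallikreins and the tested gene on each side, in chromosome order. *Klk1* at -1.36 stands lowest, *Klk11* and *Klk10* are above 0, and *Ctu1* and *1700028J19Rik* lie near 0.

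The kallikrein-kinin system gives the substrate and the fate of the product of Klk1. Of 15 genes listed for it, 6 were tested, 2 rose, 1 fell and 3 did not pass the threshold, 3 of 6 called against 40.7% of all tested genes (median log2 fold change -0.0185 against -0.00245 for all tested genes). The kininogen gene *Kng2*, which encodes a kinin precursor, had 47.3, 37.1, 35.5, 43.2 and 39.6 normalised counts in the non-targeting libraries and 7.35, 6.42, 5.32, 5.69 and 5.45 in the *Creb3l1* shRNA libraries. It fell by 2.72 on the log2 scale (SE 0.25, adjusted p = 4.77e-12, edgeR), without overlap but from few reads. The other kininogen gene, *Kng1*, was near 0.

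*Ace*, the peptidase that inactivates bradykinin, rose by 1.01 on the log2 scale (SE 0.094, adjusted p = 5.71e-12, edgeR). Its normalised counts were 97.6, 111, 94.1, 117 and 133 in the non-targeting and 209, 226, 256, 222 and 211 in the *Creb3l1* shRNA libraries, which did not overlap. *Ece1*, the endothelin-converting enzyme that can also cut bradykinin, rose from 2556 ± 121 to 3687 ± 106.9 (SD, n = 5 each; log2 fold change 0.53, adjusted p = 3.77e-18, edgeR). The kinin-cutting peptidases *Cpm*, *Xpnpep1* and *Prcp* had log2 fold changes of -0.058, 0.021 and -0.098 and did not pass the threshold (adjusted p = 0.552, 0.612 and 0.174). The bradykinin receptor gene *Bdkrb1* had no read, *Bdkrb2* had none in the non-targeting line, and plasma kallikrein (*Klkb1*) and *F12* were at or near 0.

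Among 15 genes for proteins that kallikreins cut or bind and for their receptors, 7 were tested, 3 fell and 4 did not pass the threshold, again against 40.7% called of all tested genes (median log2 fold change -0.18). *Ephb2*, an ephrin receptor that Klk8 can cut, fell by 0.39 (SE 0.026, adjusted p = 3.99e-16, edgeR), from 6232 ± 142 to 4760 ± 119 normalised counts (SD, n = 5 each). The adhesion protein gene *L1cam*, also a Klk8 substrate, and *Agt*, which encodes angiotensinogen, fell by 0.19 and 0.18 (adjusted p = 4.54e-05 and 6.51e-05, edgeR). The 2 lines overlapped for *L1cam*, and *Agt* was not past the threshold after the correction for GC content and length (adjusted p = 0.0367, with 1.73e-06 to 0.0367 over all alternatives).

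Other genes of this list were at low levels. *Egf* had about 90 normalised counts in each line (90.3 ± 15.7 and 89.8 ± 7.33, SD, n = 5 each, adjusted p = 0.915), and *Egfr*, *Nrg1* and the protease-activated receptor genes *F2r*, *F2rl1*, *F2rl2* and *F2rl3* were at or near 0. *Bdnf* (log2 fold change 0.35, adjusted p = 0.0356), *Ngfr* (-0.74, adjusted p = 0.0133) and *Fn1* (0.47, adjusted p = 0.384) did not pass the threshold in edgeR's test. The value of *Fn1* was 0.14 without *Creb3l1* shRNA replicate 3 and 0.72 without non-targeting replicate 1. *Ngfr* passed it with at least 10 counts in every library (adjusted p = 0.00971), without non-targeting shRNA replicate 2 (adjusted p = 0.00813) or without *Creb3l1* shRNA replicate 5 (adjusted p = 0.00288), with 0.00288 to 0.0635 over all alternatives.

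Of 18 genes for activating proteases and inhibitors, 8 were tested, 1 rose and 4 fell, against 20.6% higher and 20.1% lower among all tested genes (median log2 fold change -0.31). The membrane-anchored trypsin-like proteases *Hpn*, *Prss8* and *St14* fell. *Hpn* (hepsin) had 4554 to 4762 normalised counts in the non-targeting and 2927 to 3133 in the *Creb3l1* shRNA libraries (log2 fold change -0.63, SE 0.027, adjusted p = 1.16e-22, edgeR). *Prss8* (prostasin) had 417 to 498 and 222 to 269 (log2 fold change -0.86, SE 0.069, adjusted p = 1.06e-13, edgeR). *St14* (matriptase) had 2395 to 2489 and 1817 to 1966 (log2 fold change -0.38, SE 0.031, adjusted p = 1.84e-13, edgeR). None of these overlapped.

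Among the inhibitors, *Serping1*, the C1 inhibitor that also inhibits plasma kallikrein, rose by 2.91 on the log2 scale (SE 0.26, adjusted p = 1.19e-12, edgeR). It had 8.05, 8.48, 13.4, 2.82 and 5.66 normalised counts in the non-targeting and 52.4, 68.5, 39.4, 56.9 and 64.5 in the *Creb3l1* shRNA libraries, so both levels were low and apart. *Serpinb6a*, an intracellular serpin, fell by 0.45 (SE 0.13, adjusted p = 0.0031, edgeR). That call was lost without replicate 4 of either line (adjusted p = 0.0144 without the non-targeting and 0.0132 without the *Creb3l1* shRNA library, and 0.00223 to 0.0144 over all alternatives). The Kunitz inhibitor genes *Spint1* and *Spint2* (log2 fold change 0.11 and 0.012) and the protease gene *Tmprss2* (-0.25) did not pass the threshold (adjusted p = 0.077, 0.737 and 0.307). The value of *Tmprss2* was -0.42 without *Creb3l1* shRNA replicate 5 and -0.15 without replicate 4. *Spint1* passed it after the correction for GC content and length (adjusted p = 0.00105, with 0.00105 to 0.221 over all alternatives). *Serpina3n*, *Serpina3m*, *Spink1* and *Spink5* had no read.

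**Figure D4:**
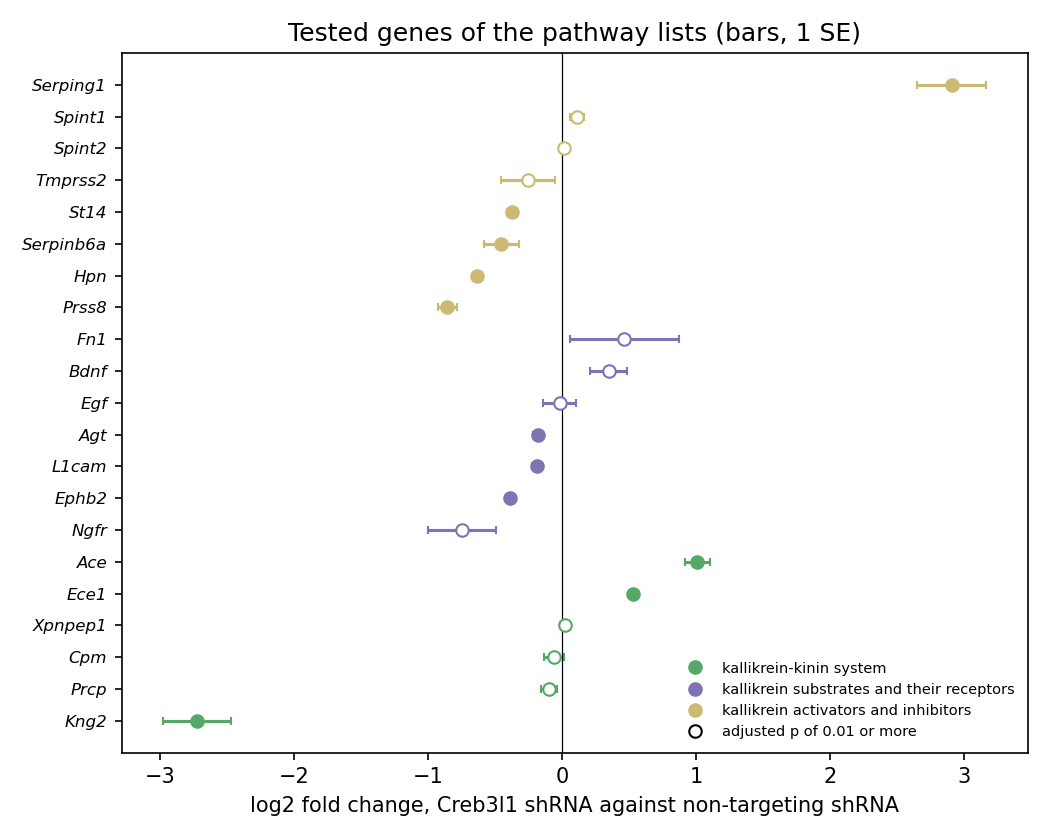
Log2 fold change (*Creb3l1* shRNA against non-targeting shRNA, bars 1 SE) of the 21 tested genes in the lists of kinin genes, substrates and receptors, and activators and inhibitors, with open symbols where the adjusted p was 0.01 or more. *Serping1* (2.91) and *Kng2* (-2.72) lie farthest from 0, both at low counts, and *Hpn*, *Prss8* and *St14* lie below 0.

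Genes whose levels followed *Klk1* most closely were ranked by Pearson's r of log2 CPM over the 10 libraries, which fall into 2 separate lines, so that this r mostly reflects the difference between them. *Golm1*, *Fetub*, *Anxa2*, *Pglyrp3* and *Dach2* came first (r = 0.999 to 0.997), and 21.0% of tested genes had an r beyond 0.9 in either direction. *Klk1b9* (0.962), *Klk1b27* (0.881) and *Klk1b4* (0.852) were positive, and *Klk11* (-0.966) and *Klk10* (-0.916) were negative. With the mean of each line removed, *Klk1* had an r of 0.490 with *Klk1b27*, 0.258 with *Klk1b4* and -0.563 with *Klk1b5* over the same 10 libraries. *Klk1b16* (0.495), *Klk1b8* (0.405), *Klk11* (0.34), *Klk1b26* (0.289), *Klk1b9* (0.282) and *Klk10* (0.281) were also positive, and *Klk9* (-0.128) was negative. The 5 highest by that measure were *Snhg5*, *Rad51ap1*, *Atp6v1c1*, *Smarce1-ps1* and *Rnf115* (r = 0.958 to 0.918). The libraries of a line share their source and no test was run on these r values, so the values are descriptions.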

How the data were processed

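Poly(A) RNA from 5 libraries of each stable line was sequenced in pairs (2 × 75 bases). STAR alignment to GRCm38 and featureCounts with the Ensembl 97 annotation gave the raw counts that the authors deposited. Their own test used DESeq2. Strand and multiple-match settings were not given in the sources used here.

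The main test was that of edgeR 4.0.16 in R 4.3.3 (filterByExpr, TMM, robust quasi-likelihood fit, no covariate, Benjamini-Hochberg adjustment over 14336 genes, threshold 0.01), with DESeq2 1.42.0 as an alternative. Depth was 17420698 to 22205107 counts per library, and precision is lowest for genes with few reads. Sequences and exon lengths came from GENCODE and RefSeq tables of GRCm38, handled in Python 3.11.15. The genes and lists were chosen with earlier results of these data known. Items of 1 list are not reported here. Text names the 9 genes, every other tested gene of the lists, 3 neighbours on each side and the 5 genes most like *Klk1* by each measure. Antisense genes and untested genes were named after their values were seen. Robust estimation was chosen after seeing the data, with the fit without it (5628 genes called) and offsets for GC content and length added as alternatives. On simulated data with 14336 genes, edgeR called 72 of 100 genes changed by 0.5 and 93 of 100 changed by 1 on the log2 scale, with 0 false calls, and DESeq2 71 and 90 with 1. Only these genes were changed there, whereas 40.7% of tested genes were called in the data, so the rates need not carry over. The alternatives were DESeq2, other scaling, other filters, a replicate block, a threshold of 0.05 and each library left out.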

Additional observations from a re-analysis of the deposited data

Results flagged for a closer look

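For each gene and line, Dixon's ratio was taken for the library at either end of the 5, and 1 of 70 groups exceeded 0.71, where chance gives about 3.5 (1 in 20 groups). *Klk1b26* had 141 normalised counts in *Creb3l1* shRNA replicate 1, against 114 to 119 in the other 4 libraries of that line.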

How the results depend on the processing

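*Klk1*, *Klk1b4*, *Klk1b27* and *Klk10* were past the threshold in every alternative at 0.01, except that *Klk1b4* was not with offsets for GC content and length. This contrast chose the members, so these outcomes describe the settings and are no test of the members. The offsets also moved the log2 fold change of *Klk1* from -1.36 to -1.24. The cause was not tested. Leaving out 1 library gave *Klk1* -1.39 to -1.34, the summed subfamily -1.29 to -1.25, and 5408 to 6026 genes called, and the share of *Klk1* in subfamily reads was 92.7% to 92.8% and 86.8% to 87.3%. Over the other settings 5542 (DESeq2) to 7209 (adjusted p under 0.05) genes were called, and at 0.05 the substrates and receptors called were 5 in place of 3. Replicate numbers did not pair the samples (r = -0.065 to 0.040, 2 of 5 libraries closest to their own number), and with the number as a block 6013 genes were called and *Klk1* had -1.36. Signs turned only for genes near 0: *Egf* (-0.11 to 0.044 over the libraries left out), *Spint2* (-0.0026 to 0.025), *Rad51ap1* (-0.041 to 0.036), *1700028J19Rik* (0.0065 with the offsets) and *Ctu1* (0.0086 with library totals, 0.073 with the offsets, and -0.027 to 0.031 over the libraries left out). At 5 reads in all, differences in *Klk8* and *Klk1b22* were not detectable at this depth.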
